A study of Mus musculus with 29 samples.

Results

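The response of the liver to intermittent fasting was compared between mice on control chow and mice on high-fat diet. The quantity reported is the interaction of diet and fasting: the change with fasting on chow (CC-IF minus CC) less that on high-fat diet (HFD-IF minus HFD). It was estimated for every gene with a mean FPKM (fragment counts scaled to transcript length and to sequencing depth) of at least 1 over the liver libraries, which was 11497 of the 24346 genes listed. The 14 liver libraries of the 29 analysed in the series entered it, and the hippocampal libraries were not used. All animals were male C57BL/6J mice made obese by 10 weeks on high-fat diet, and they then spent 4 weeks on 1 of 4 regimens. CC-IF mice (4 libraries) received control chow with intermittent fasting, CC mice (4 libraries) control chow ad libitum, HFD-IF mice (2 libraries) high-fat diet with fasting on alternate days, and HFD mice (4 libraries) high-fat diet ad libitum. CC livers therefore come from obese mice returned to chow and not from lean mice that never ate the high-fat diet. The sources used here do not give the age of the mice, the hour of tissue collection, or whether the fasting groups had last been fasted or fed.

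In fasting, the liver releases glucose made from amino acids, lactate and glycerol, disposes of the nitrogen through the urea cycle, and oxidises fatty acids under control of the nuclear receptor PPAR alpha. Falling insulin reduces the synthesis of fatty acids and cholesterol that the SREBP transcription factors drive. Feeding times also set the phase of the liver clock, a loop in which Clock and Bmal1 (Arntl) activate the Per, Cry, Nr1d and Ciart genes, whose products repress the loop in turn, and high-fat feeding is known to alter the rhythms of mouse liver.

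Liver libraries held 15087 to 16343 genes above 0, at depths estimated from the spacing of low values as 9.6 to 16.2 M fragments (M for mega). The 10 hepatocyte markers used, which include Apoa1, Ttr and Tf, summed to 34689 to 39153 FPKM in CC-IF livers, 37882 to 45291 FPKM in CC livers, 42172 and 26052 FPKM in HFD-IF livers and 43632 to 46261 FPKM in HFD livers, and none of the 10 was at 0 in any liver. Alb, the albumin gene, was listed at 0 in 8 of the 14 livers and at 29215 to 43965 FPKM in the others, so its zeros were read as failed estimates and it was left out of that sum. The 2 HFD-IF libraries, numbered 0 and 1 by the index in their columns, stood further apart than any other pair of a group. Their median absolute difference was 0.27 on the log2 scale, against 0.16 to 0.21 for pairs of CC-IF libraries, 0.14 to 0.18 for pairs of CC libraries and 0.14 to 0.20 for pairs of HFD libraries. HFD-IF library 1 also had more RNA of some other cell types. There 16 markers of infiltrating and lipid-associated macrophages summed to 368 FPKM, against 69.9 FPKM in HFD-IF library 0. They summed to 86.9 to 158 FPKM in CC-IF livers, 120 to 223 FPKM in CC livers and 77.4 to 96.7 FPKM in HFD livers. Endothelial markers were alike, 215 FPKM in library 1 and 219 FPKM in library 0. Library 1 was lower than library 0 in markers of adipocytes (368 against 2445 FPKM), erythroid cells (28.9 against 60.1 FPKM) and pancreas (3.98 against 7.31 FPKM). Many of these markers were at 0. Of 9 adipocyte markers 7 were at 0 in library 1 and 5 in library 0. Of 12 pancreas markers it was 10 and 11, and of 6 erythroid markers 1 and 3. These sums therefore rest on few genes and may not stand for the cells. Fewer cells of a type and less RNA per cell cannot be told apart in such tissue RNA. Because the high-fat side of the interaction rests on these 2 libraries, values without 1 or the other are given below for the lists and for genes that they move.

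The fasting change depended on diet for 128 genes, nearly all of them in 1 direction. The interaction was above 0 for 115 genes and below 0 for 13 at an adjusted p under 0.05 (limma on log2(FPKM + 1), Benjamini-Hochberg over all genes), which is 1.11% of the 11497 genes tested, 1% higher and 0.113% lower. An unadjusted p under 0.05 was found for 2101 genes. Over all genes tested the median interaction was 0.04 and 54.4% of values were above 0. Of the 128 genes, 67 had an interaction of at least 1 on the log2 scale, 59 of them above 0 and 8 below.

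The number of genes called depended on single libraries. Without HFD-IF library 1 the interaction was called for 29 genes, 27 above 0 and 2 below, and 22 of them were among the 128. Without HFD-IF library 0 it was called for 1761, 1053 above 0 and 708 below, which included all 128. The lone HFD-IF library is assumed in those fits to vary like the other groups. Leaving out CC-IF library 1 left 16 genes, and over all 14 fits without 1 library the count ran from 16 to 1761. With limma's array weights, which gave both HFD-IF libraries 0.376 and the others 0.631 to 1.84, 0 genes were called, the lowest adjusted p was 0.0604, and 1466 had an unadjusted p under 0.05. The sign of each of the 128 interactions was the same in all 14 fits, which their choice by the fit with all libraries nearly fixes.

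**Figure D1:**
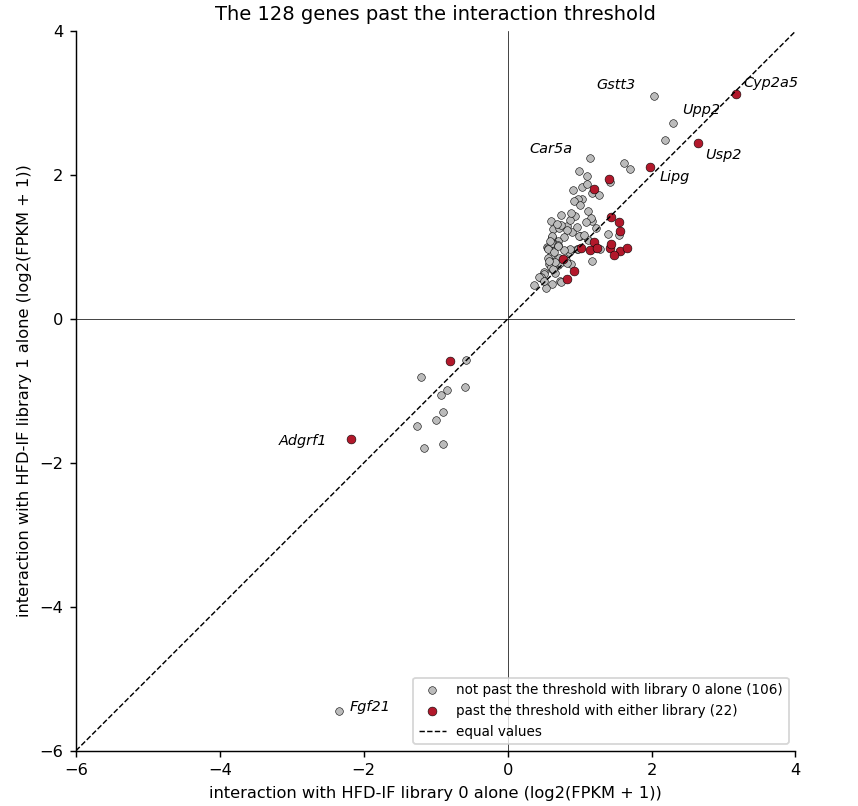
Interaction on the log2(FPKM + 1) scale of the 128 genes called, estimated with HFD-IF library 0 as the only HFD-IF library (horizontal) and with library 1 as the only one (vertical). Each point is a gene, red where it was called whichever library was used (22 genes) and grey where it was not called with library 0 alone (106 genes). Among the named genes Fgf21 lies furthest from the line of equal values.

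Most of the called genes changed with fasting on chow and were not called on high-fat diet. Fasting on chow raised 1633 genes and lowered 1123 (CC-IF against CC, 24% of genes tested, 14.2% higher and 9.77% lower). Fasting on high-fat diet raised 41 and lowered 111 (HFD-IF against HFD, 1.32%, 0.357% higher and 0.965% lower), the second contrast having 2 libraries in its fasting group. Of the 115 genes with an interaction above 0, 110 were called higher by fasting on chow, where 14.2% of all genes were. Their median fasting change was 0.80 on chow and -0.12 on high-fat diet, against 0.02 and -0.01 over all genes tested. On high-fat diet 3 of the 115 were called higher, namely Usp2, Esrra and Marveld1, and 2 lower, namely Slc15a5 and Aldh1l1. Marveld1 and Aldh1l1 were named after their values were seen. The 2 fasting changes had opposite signs in 77 of the 115 genes and the same sign with a larger size on chow in the other 38. The 115 genes were chosen by the difference of these same 2 changes. The counts and medians therefore describe the interaction and are no separate evidence of it.

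The same interaction, read across the diets, had a part in livers fed ad libitum and a part in fasted livers. In 101 of the 115 genes CC livers had the lowest of the 4 group means, in 97 CC-IF livers had the highest, and in 88 both held. Against HFD livers, the CC livers were called lower for 57 of the 115, where 2.3% of all genes were called, 0.339% higher and 1.97% lower, and the median difference (CC minus HFD) was -0.49. Against HFD-IF livers, the CC-IF livers were called higher for 24, where 0.591% of all genes were called, 0.391% higher and 0.2% lower, with a median difference of 0.49. The difference between the ad libitum groups made up a median of 47.7% of the interaction, and over 50% of it in 54 genes. The libraries of the CC-IF and CC groups did not overlap in 110 of the 115, where CC-IF lay above CC without overlap in 17.4% of all genes. CC lay below HFD without overlap in 86, against 9.5% of all genes, and CC-IF above HFD-IF in 84, against 12.6%. The interaction and these differences share libraries, so the counts describe where the interaction lay and are no separate evidence of it.

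**Figure D2:**
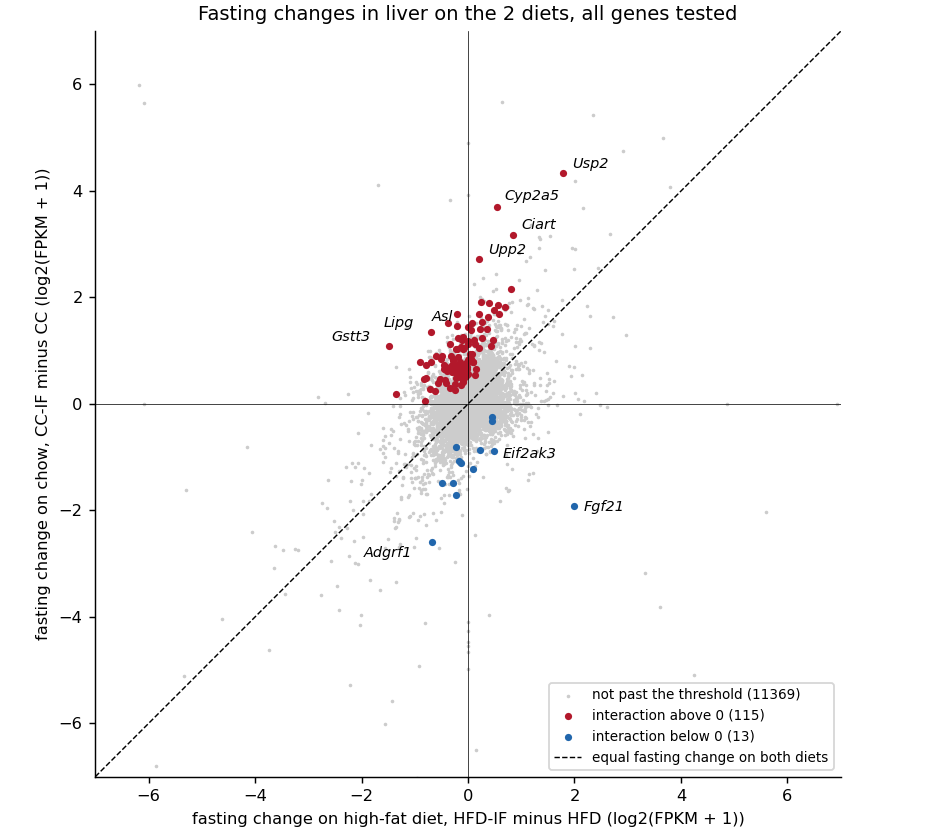
Fasting change on high-fat diet (horizontal, HFD-IF minus HFD) and on chow (vertical, CC-IF minus CC) of each gene tested, on the log2(FPKM + 1) scale. Red points are the 115 genes with an interaction above 0, blue points the 13 below 0 and grey points the rest; 23 genes beyond 7 on either axis, 0 of them called, are not drawn. Red points lie above the dashed line of equal change, and 77 of the 115 have opposite signs on the 2 axes.

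Enzymes that dispose of amino acids and nitrogen were the list with the most called genes. Of 40 genes for urea synthesis or the breakdown of amino acids, 8 were called with an interaction above 0 (Asl, Arg1, Prodh, Hpd, Uroc1, Bckdhb, Mat1a and Ahcy) and 0 below, where 1.11% of all genes were called. The median over the list was 0.64 and 34 of 40 values were above 0, against 54.4% of all genes. Fasting on chow raised 23 of the 40 and lowered 4, against 14.2% and 9.77% of all genes, so the share lowered was near that of all genes; the median change was 0.41. Fasting on high-fat diet raised 0 and lowered 2, against 0.357% and 0.965%, with a median of -0.19. In CC livers 15 of the 40 were called lower than in HFD livers and 0 higher, against 1.97% and 0.339%.

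Asl, argininosuccinate lyase of the urea cycle (chromosome 5, 130011258 to 130029247; positions follow GENCODE M21, build GRCm38), had 488, 560.0, 426 and 573 FPKM in the CC-IF livers, 194, 187, 207 and 157 FPKM in the CC livers, 266 and 307 FPKM in the HFD-IF livers and 259, 301, 269 and 317 FPKM in the HFD livers. All 4 CC-IF livers lay above every other liver and all 4 CC livers below every other liver, while the HFD-IF and HFD livers overlapped. Asl rose by 1.45 ± 0.12 on the log2 scale with fasting on chow, its change on high-fat diet was 0.0014, and the interaction was 1.45 ± 0.19 (SE, limma adjusted p = 0.0116). Arg1, arginase, which releases urea in the last step of the cycle (chromosome 10, 24915221 to 24927484), had 1136, 1137, 1037 and 1182 FPKM in the CC-IF livers, 763, 677, 752 and 636 FPKM in the CC livers, 706 and 803 FPKM in the HFD-IF livers and 948, 997, 929 and 1061 FPKM in the HFD livers. The CC-IF livers lay above all HFD-IF and CC livers but overlapped the HFD livers, which lay above both HFD-IF livers. Arg1 rose by 0.67 on chow, had a change of -0.38 on high-fat diet that did not pass the threshold (adjusted p = 0.111 in limma), and had an interaction of 1.05 ± 0.15. Cps1 and Otc, which make carbamoyl phosphate and citrulline at the entry to the cycle, had interactions of 0.50 ± 0.21 and 0.43 ± 0.20 that did not pass, and Ass1, the enzyme before Asl, had 0.83 ± 0.22 (limma adjusted p = 0.0891). These 3 genes were chosen after their values were seen, to complete the cycle.

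Prodh, proline dehydrogenase, which begins proline breakdown in mitochondria (chromosome 16, 18060357 to 18090203), had 78.9, 84.9, 76.8 and 101 FPKM in the CC-IF livers, 46.3, 50.7, 41.3 and 41.9 FPKM in the CC livers, 63.8 and 41.9 FPKM in the HFD-IF livers and 89.4, 87.8, 68.3 and 72.6 FPKM in the HFD livers. The HFD and CC-IF livers overlapped, the CC livers were below both, and HFD-IF library 1 lay in the range of CC while library 0 lay above it. Its interaction was 1.504 ± 0.22 (limma adjusted p = 0.0131), and the CC minus HFD difference was -0.80. Gpt is the cytosolic alanine aminotransferase that turns alanine into pyruvate (chromosome 15, 76695716 to 76699686). It was the 1 called gene of 20 in the gluconeogenesis list, where 1.11% of all genes were called. Gpt had 203, 244, 186 and 234 FPKM in the CC-IF livers and 96.3, 108, 99.1 and 112 FPKM in the CC livers. It had 159.9 and 175 FPKM in the HFD-IF livers and 186, 187, 159 and 177 FPKM in the HFD livers. CC livers were below all others, the HFD-IF and HFD livers overlapped, and the highest HFD livers reached the lowest CC-IF liver. Gpt rose by 1.05 with fasting on chow and had -0.08 on high-fat diet, an interaction of 1.13 ± 0.15 (limma adjusted p = 0.0116). Pck1 and G6pc, which encode the enzymes that commit carbon to glucose and release it, were not called in the interaction (0.75 ± 0.34 and 0.25 ± 0.67). Pck1 was 1.15 without HFD-IF library 1 and 0.35 without library 0.

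The other 5 called members also had their highest group mean in CC-IF livers and their lowest in CC livers. Bckdhb, a subunit of the complex that oxidises branched-chain keto acids, had 103, 101, 86.3 and 86.9 FPKM in the CC-IF livers, 53.1, 56.1, 54.5 and 55.2 FPKM in the CC livers, 77.4 and 73.7 FPKM in the HFD-IF livers and 80.1, 78.6, 71.4 and 79.2 FPKM in the HFD livers, and its interaction was 0.80 ± 0.12. Hpd, of tyrosine breakdown, averaged 1957 ± 182 FPKM in CC-IF livers, 1071 ± 134 FPKM in CC livers, 1384 ± 221 FPKM in HFD-IF livers and 1559 ± 82.1 FPKM in HFD livers (SD, n = 4, 4, 2 and 4). Mat1a, which makes S-adenosylmethionine, and Ahcy, which removes its by-product, had interactions of 1.11 ± 0.22 and 1.32 ± 0.26. Uroc1, of histidine breakdown, had 0.84 ± 0.18. Hpd, Mat1a, Ahcy and Uroc1 lie outside the rule for named genes and were added after their values were seen, to complete the count. The list median was 0.59 without HFD-IF library 1 and 0.60 without library 0.

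**Figure D3:**
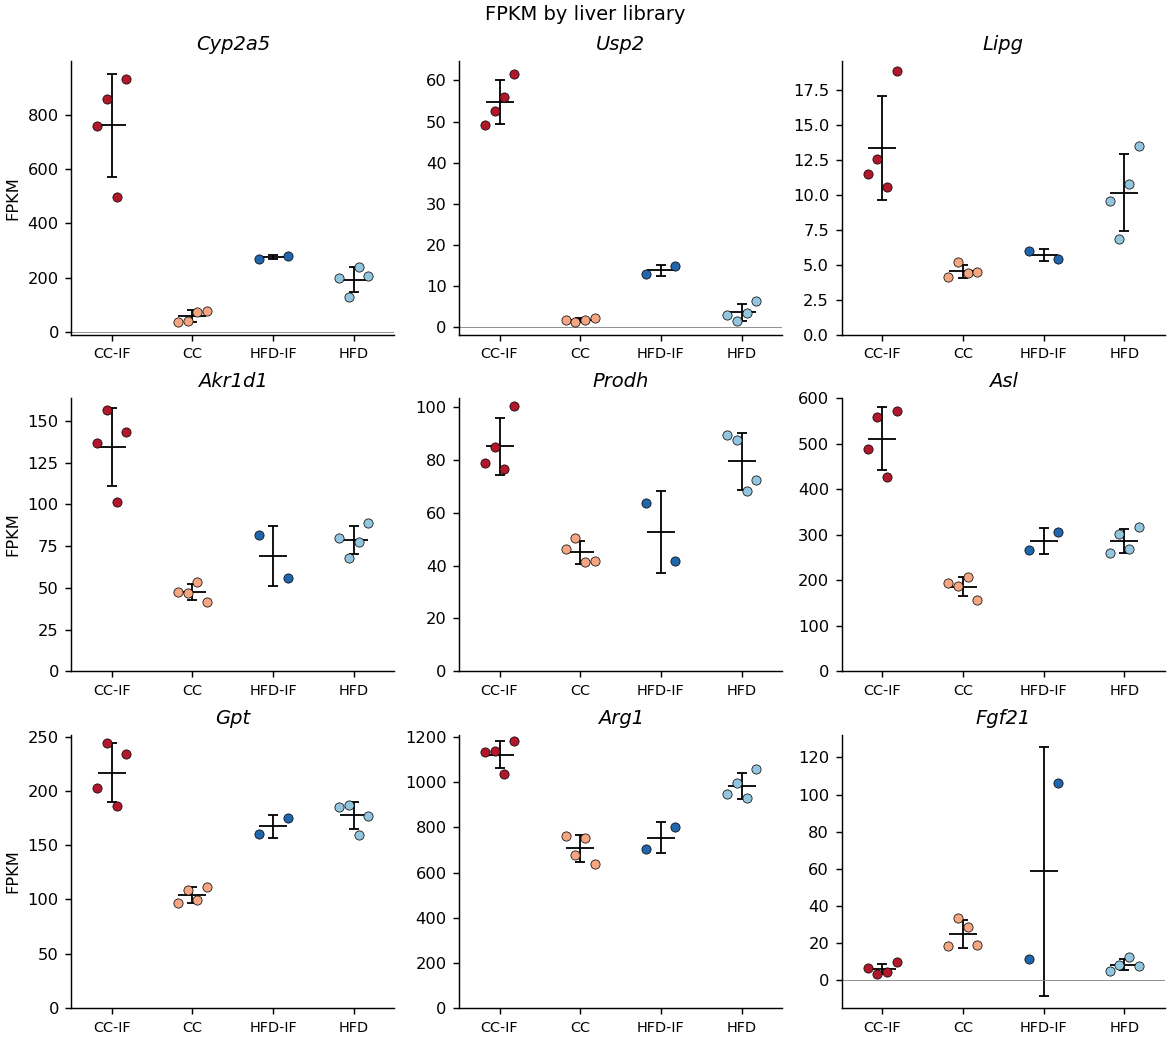
FPKM (vertical) of 9 genes in the libraries of the 4 liver groups, each panel with its own scale that includes 0. Points are libraries, the horizontal line is the group mean and the bars are the SD (n = 4, 4, 2 and 4). In the first 8 panels CC-IF livers have the highest mean and CC livers the lowest; in the Fgf21 panel 1 HFD-IF library at 106 FPKM stands above all others.

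Genes for the metabolism of foreign compounds held the highest interaction of all called genes. Of 36 genes of xenobiotic metabolism, 4 were called, all above 0 (Cyp2a5, Gstt3, Cyp3a25 and Sult1d1), where 1.11% of all genes were. The list median was 1.03, 0.58 without HFD-IF library 1 and 1.15 without library 0. Fasting on chow raised 19 of the 36 and lowered 1, against 14.2% and 9.77% of all genes, and fasting on high-fat diet raised 1, Por, against 0.357%. Cyp2a5, the coumarin 7-hydroxylase of mouse liver (chromosome 7, 26835305 to 26843548), had 759, 857, 496 and 931 FPKM in the CC-IF livers, 39.3, 42.3, 76.7 and 78.9 FPKM in the CC livers, 271 and 282 FPKM in the HFD-IF livers and 198, 132, 239 and 208 FPKM in the HFD livers. None of the 4 groups overlapped, and their order was CC-IF, HFD-IF, HFD and CC. Cyp2a5 rose by 3.69 ± 0.26 on chow, the change on high-fat diet was 0.54 ± 0.32 (adjusted p = 0.405), and the interaction of 3.15 ± 0.42 had a limma adjusted p of 0.0116. Its close copy Cyp2a4 can share reads with it, so its level is uncertain where the counting split them; the same holds for the Cyp2b, Cyp3a and Cyp4a families.

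Gstt3, a theta class glutathione transferase, had the second highest interaction among called genes, 2.56 ± 0.43 (limma adjusted p = 0.0212). It had 29, 40.3, 17.4 and 39.2 FPKM in the CC-IF livers, 12, 13.3, 12.4 and 17.3 FPKM in the CC livers, 18.5 and 8.28 FPKM in the HFD-IF livers and 39.2, 29.2, 32.8 and 47.5 FPKM in the HFD livers. The change was 1.08 on chow, which passed the threshold, and -1.48 on high-fat diet, which did not (adjusted p = 0.0503). The 2 HFD-IF libraries differed, and the interaction was 2.03 without library 1 (limma adjusted p = 0.0934). Cyp3a25, of the steroid and drug oxidising Cyp3a family, had an interaction of 1.67 ± 0.29, and Sult1d1, a sulfotransferase added after its value was seen, of 1.12 ± 0.21. Por, the reductase that supplies electrons to microsomal P450 enzymes, had 602, 633, 583 and 707 FPKM in the CC-IF livers, 44.5, 50.9, 94.6 and 110.4 FPKM in the CC livers, 246 and 265 FPKM in the HFD-IF livers and 61.7, 82.5, 98.3 and 114 FPKM in the HFD livers. It was called higher on both diets, by 3.15 on chow and 1.54 on high-fat diet, and the difference between them missed the threshold (1.61 ± 0.41, limma adjusted p = 0.0756). Cyp2b9, a female-biased P450, had 201, 85.4, 3.62 and 196 FPKM in CC-IF livers, 0, 0, 0.28 and 0.808 FPKM in CC livers, 22.1 and 6.85 FPKM in HFD-IF livers and 44.4, 0.175, 0.622 and 63 FPKM in HFD livers, and with this spread its interaction of 5.04 ± 2.19 did not pass.

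Clock genes and clock outputs had the highest median fasting changes on chow of all lists after female-biased genes. Of 15 activators and outputs, 3 were called with an interaction above 0 (Usp2, Upp2 and Fmo5), where 1.11% of all genes were called, with a list median of 1.23 and 10 values above 0. Of 10 repressors, 1 was called (Ciart), with a median of 1.01 and all 10 values above 0. Fasting on chow raised 10 and lowered 4 of the 15 and raised 6 of the 10, against 14.2% of all genes raised and 9.77% lowered. Fasting on high-fat diet raised 3 of the 15 and 0 of the 10, against 0.357%. The median interactions were 0.75 and 0.70 without HFD-IF library 1 and 0.95 and 1.04 without library 0, for the outputs and the repressors in that order.

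Of the 9 clock genes with a promoter entry, Ciart and Per1 hold an E-box, Per3 a D-box and Arntl the ROR response element. For Per1 and Arntl a further entry of the same gene holds none of the 3 motifs. The entries of Usp2, Upp2, Fmo5, Dbp and Nr1d1 hold none of the 3. The starts of Ciart and Per3 are shown because they hold more than 1 match each, and that of Usp2 because it is the called clock output with the highest interaction. Each is 250 bases before to 50 after the start site on the strand of the gene, from RefSeq on GRCm38.p6: chr3:95882179-95882478 (minus strand) for Ciart, chr4:151044616-151044915 (minus strand) for Per3 and chr9:44084670-44084969 (plus strand) for Usp2. The Usp2 window lies inside the gene, which spans 44067021 to 44095627, so a start at the beginning of the gene was not searched. Capitals mark the E-box CACGTG in Ciart and the D-box TTATGTAA in Per3.
Ciart: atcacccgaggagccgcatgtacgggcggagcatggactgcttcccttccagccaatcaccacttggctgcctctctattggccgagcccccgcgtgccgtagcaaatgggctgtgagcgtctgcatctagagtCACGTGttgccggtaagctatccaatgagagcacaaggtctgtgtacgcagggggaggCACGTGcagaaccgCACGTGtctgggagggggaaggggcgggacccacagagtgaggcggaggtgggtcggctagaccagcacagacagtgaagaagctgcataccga
Per3: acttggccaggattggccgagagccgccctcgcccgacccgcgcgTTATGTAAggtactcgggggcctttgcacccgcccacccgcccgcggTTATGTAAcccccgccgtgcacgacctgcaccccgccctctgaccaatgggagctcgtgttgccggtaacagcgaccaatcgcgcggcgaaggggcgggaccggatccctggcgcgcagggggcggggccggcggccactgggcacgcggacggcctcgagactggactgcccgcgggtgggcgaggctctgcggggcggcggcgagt
Usp2: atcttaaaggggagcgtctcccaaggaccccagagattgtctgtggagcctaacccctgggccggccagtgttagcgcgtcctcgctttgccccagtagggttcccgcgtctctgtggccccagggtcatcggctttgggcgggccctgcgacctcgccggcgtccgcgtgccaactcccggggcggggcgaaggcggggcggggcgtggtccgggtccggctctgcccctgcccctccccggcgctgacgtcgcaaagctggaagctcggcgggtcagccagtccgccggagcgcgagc

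The E-box, the site of Clock and Bmal1, begins at -116, -58 and -44 from the start site of Ciart. The D-box, the site of Dbp and its relatives, begins at -205 and -158 in Per3, and the Usp2 window holds none of the 3 motifs searched on both strands (E-box, D-box and the ROR response element). Neither box contains the other. Of 32851 promoters in the table, 7.15% hold the E-box, 0.938% the D-box and 0.219% the ROR element. Of the 98 called genes with an entry, 14 (14.3%) hold the E-box, against 12% of the 8733 tested genes with one. The D-box is in 4 of the 98 (4.08%; Apol7a, Map2k6, Slc16a12 and Wnt5b), against 0.756% of tested genes, and the ROR element is in 0. These are matches of letters and not measured binding.

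Usp2, a deubiquitinating enzyme that is a clock output in liver (chromosome 9, 44067021 to 44095627), had 49.1, 52.6, 56 and 61.7 FPKM in the CC-IF livers, 1.8, 1.22, 1.84 and 2.31 FPKM in the CC livers, 12.8 and 14.8 FPKM in the HFD-IF livers and 3.02, 1.57, 3.44 and 6.32 FPKM in the HFD livers. The 4 groups were ordered CC-IF, HFD-IF, HFD and CC, with overlap of HFD and CC alone. Usp2 was called higher by fasting on both diets, by 4.33 ± 0.24 on chow and 1.79 ± 0.29 on high-fat diet, and the interaction was 2.55 ± 0.38 (limma adjusted p = 0.0131). Ciart, a repressor of Clock and Bmal1 (chromosome 3, 95878503 to 95882251), had 8.54, 9.36, 12.8 and 13.4 FPKM in the CC-IF livers, 0.431, 0.127, 0.189 and 0.51 FPKM in the CC livers, 3.09 and 2.33 FPKM in the HFD-IF livers and 0.487, 0.39, 1.46 and 2.54 FPKM in the HFD livers. CC-IF livers lay above all others, and the HFD-IF and HFD livers overlapped. Its interaction of 2.34 ± 0.41 had a limma adjusted p of 0.0253 and stayed called in 8 of the 14 fits without 1 library.

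Per2 and Per3 had the same order of group means without passing. Per2, a core repressor, had 17.6, 22.5, 29.3 and 28.7 FPKM in the CC-IF livers, 8.15, 2.64, 2.15 and 3.39 FPKM in the CC livers, 9.26 and 10.2 FPKM in the HFD-IF livers and 6.3, 4.96, 6.28 and 8.6 FPKM in the HFD livers. Per3, its paralogue, had 20.4, 14.6, 13.3 and 14 FPKM in the CC-IF livers, 0.69, 0.294, 0.386 and 1.12 FPKM in the CC livers, 8.73 and 5.93 FPKM in the HFD-IF livers and 2.12, 0.771, 4.94 and 4.11 FPKM in the HFD livers. Both rose with fasting on chow, by 2.44 for Per2 and 3.36 for Per3, and their interactions were 1.90 ± 0.44 (limma adjusted p = 0.0588) and 2.17 ± 0.50 (adjusted p = 0.0576). Per1 rose on chow by 1.10, had close means in CC, HFD-IF and HFD livers, and had an interaction of 1.09 ± 0.42.

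Dbp and Arntl, which peak at opposite phases of the mouse liver clock, varied widely inside groups. Dbp, an output activator, had 67.5, 42.4, 50.7 and 41.6 FPKM in the CC-IF livers, 2.18, 0.23, 0.337 and 10.5 FPKM in the CC livers, 57 and 26 FPKM in the HFD-IF livers and 6.98, 0.552, 28.1 and 25.3 FPKM in the HFD livers. CC and HFD livers each ran over a wide range, Dbp rose by 4.18 with fasting on chow, and the interaction was 2.18 ± 1.37 (limma adjusted p = 0.419). Arntl had 1.27, 2.24, 2.31 and 3.74 FPKM in the CC-IF livers, 10.6, 16, 17.3 and 8.41 FPKM in the CC livers, 2.72 and 7.89 FPKM in the HFD-IF livers and 11.9, 15, 6.34 and 3.47 FPKM in the HFD livers. It fell by 2.05 with fasting on chow, had -0.66 on high-fat diet (adjusted p = 0.499 in limma) and an interaction of -1.39 ± 0.63 that did not pass. Nr1d1, a repressor of Arntl, was not called in any contrast, with an interaction of 0.48 ± 0.73. The hour of collection was not a variable that could be modelled, and its part in these values was not tested.

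**Figure D4:**
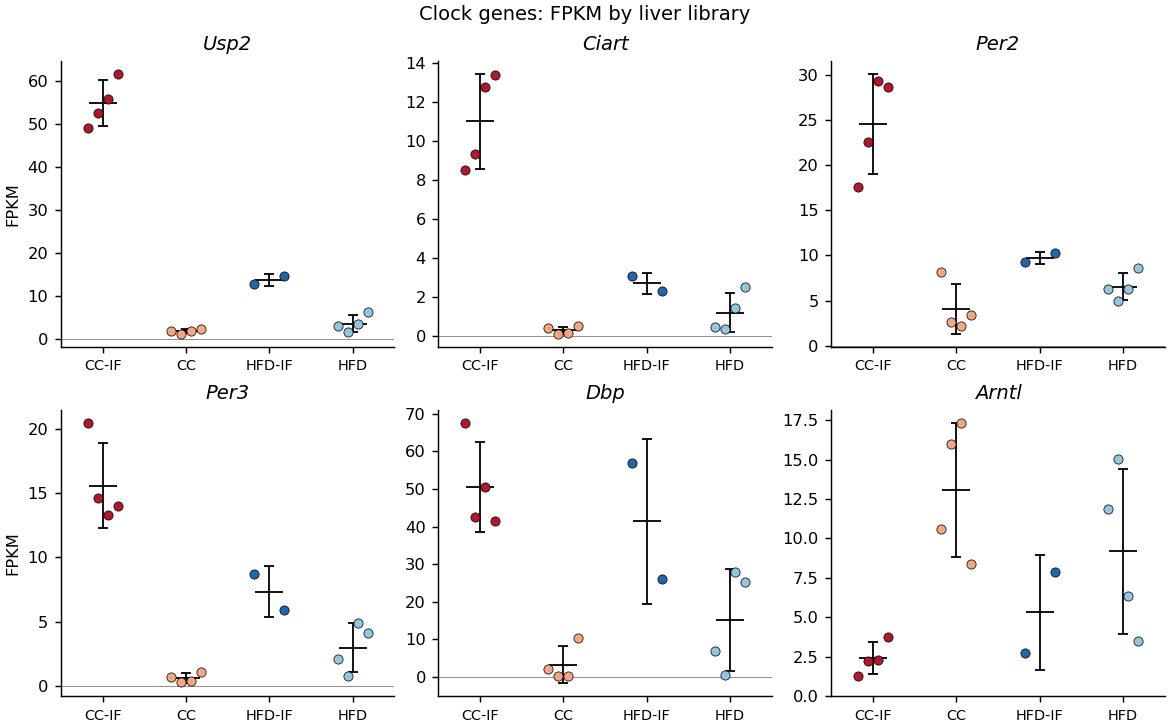
FPKM (vertical) of 6 clock genes in the libraries of the 4 liver groups; points are libraries, lines group means and bars the SD (n = 4, 4, 2 and 4). Usp2, Ciart, Per2 and Per3 are highest in CC-IF livers and have their lowest mean in CC livers with HFD-IF livers between, while Dbp runs from 0.552 to 28.1 FPKM among the HFD livers.

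Upp2, uridine phosphorylase, and Fmo5, a flavin monooxygenase, were the other called outputs. Upp2 had 198, 266, 186 and 183 FPKM in the CC-IF livers, 25, 27.6, 28.2 and 43.2 FPKM in the CC livers, 70.4 and 52.3 FPKM in the HFD-IF livers and 34.8, 33.2, 65.4 and 99.5 FPKM in the HFD livers, and its interaction of 2.52 ± 0.48 was called in 6 of the 14 fits without 1 library. Fmo5 had 302, 377, 432 and 401 FPKM in the CC-IF livers, 142, 107, 131 and 105 FPKM in the CC livers, 176 and 269 FPKM in the HFD-IF livers and 179, 173, 145 and 176 FPKM in the HFD livers. Its interaction of 1.26 ± 0.24 was 0.95 without HFD-IF library 0 and 1.56 without library 1.

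The lipid genes described here with a called interaction were Lipg, Akr1d1 and Dgat2. The last 2 were 1 of 20 and 1 of 24 genes of their lists, where 1.11% of all genes were called. Lipg, endothelial lipase, a secreted phospholipase that acts on high-density lipoprotein (chromosome 18, 74939322 to 74961263), had 11.5, 12.6, 10.6 and 18.8 FPKM in the CC-IF livers, 4.09, 5.17, 4.38 and 4.51 FPKM in the CC livers, 5.99 and 5.39 FPKM in the HFD-IF livers and 9.54, 6.81, 10.8 and 13.5 FPKM in the HFD livers. The CC-IF and HFD livers overlapped, both HFD-IF livers lay below them, and the CC livers lay below all others. The fasting change was 1.35 on chow, which was called, and -0.70 on high-fat diet, which was not (adjusted p = 0.139), with an interaction of 2.05 ± 0.29 (limma adjusted p = 0.0131). Akr1d1, the reductase that sets the ring shape of bile acids (chromosome 6, 37530173 to 37568815), was the 1 called of 20 bile acid genes, with 137, 157, 101 and 143 FPKM in the CC-IF livers, 47.6, 46.7, 53.5 and 41.6 FPKM in the CC livers, 81.5 and 56.1 FPKM in the HFD-IF livers and 80, 67.9, 77.6 and 88.7 FPKM in the HFD livers and an interaction of 1.68 ± 0.23. CC livers lay below all others, and Cyp7a1, which controls the rate of bile acid synthesis, had an interaction of 1.60 ± 1.02 that did not pass. Dgat2, which adds the last acyl chain of triglyceride, was the 1 called of 24 lipid droplet genes. It had 327, 349, 302 and 332 FPKM in the CC-IF livers, 208, 179, 197 and 229 FPKM in the CC livers, 246 and 151 FPKM in the HFD-IF livers and 228, 272, 269.6 and 256 FPKM in the HFD livers, with an interaction of 1.10 ± 0.21 that was 0.74 without HFD-IF library 1 (limma adjusted p = 0.1).

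Most genes of fatty acid oxidation and PPAR alpha targets rose with fasting on chow, and 0 were called in the interaction. As 1.11% of all genes were called, 0 calls in a list of this size do not show that fasting acted alike on both diets. Of 49 genes of fatty acid oxidation and PPAR alpha targets, fasting on chow raised 36 (14.2% of all genes) and fasting on high-fat diet 0 (0.357%), with median changes of 0.87 and 0.41. The median interaction was 0.49, with 43 of 49 values above 0, against 54.4% of all genes. It was 0.55 without HFD-IF library 1 and 0.52 without library 0. Cyp4a14, a fatty acid hydroxylase that PPAR alpha induces, illustrates the spread: it had 2200.2, 2058, 3048 and 3164 FPKM in the CC-IF livers, 8.68, 61.4, 156 and 445 FPKM in the CC livers, 1001 and 1225 FPKM in the HFD-IF livers and 109, 16.4, 112 and 267 FPKM in the HFD livers. The lowest and highest CC livers were far apart, and its interaction was 1.33 ± 1.56 (limma adjusted p = 0.697). Cyp4a10, Acot3 and Cpt1a, which admits fatty acids to mitochondria, had 1.83 ± 1.17, 3.08 ± 1.02 and 0.46 ± 0.30. Cpt1a was 0.81 without HFD-IF library 1 and 0.10 without library 0. Of 9 genes of ketone body synthesis and transport 0 were called, where 1.11% of all genes were. Angptl4 and Pdk4, fasting-induced targets of the same receptor, had 0.54 ± 0.45 and -0.26 ± 0.76, and Angptl4 was 1.02 without HFD-IF library 1 and 0.07 without library 0.

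Of 18 genes of mitochondrial biogenesis and dynamics 2 were called, Esrra and Mfn2, where 1.11% of all genes were. The list median of 0.26 was 0.19 without HFD-IF library 1 and 0.37 without library 0. Esrra, the receptor ERR alpha that drives genes of oxidative metabolism (chromosome 19, 6910977 to 6921813), had 23.7, 21.9, 23.1 and 22.4 FPKM in the CC-IF livers, 11.8, 10.2, 9.58 and 9.19 FPKM in the CC livers, 16.2 and 15.2 FPKM in the HFD-IF livers and 11, 12.2, 11.2 and 11 FPKM in the HFD livers. It rose on both diets, by 1.09 on chow and 0.43 on high-fat diet, and the interaction was 0.66 ± 0.12 (limma adjusted p = 0.0296). Mfn2, which fuses outer mitochondrial membranes, had an interaction of 0.75 ± 0.15, which was 0.60 without HFD-IF library 1 and 0.89 without library 0. Of 65 subunits of oxidative phosphorylation 0 were called, where 1.11% of all genes were. An interaction above 0 was found for 64 of them, against 54.4% of all genes, with a median of 0.36. The median was 0.22 without HFD-IF library 1 and 0.52 without library 0. Car5a, the mitochondrial carbonic anhydrase that supplies bicarbonate to the urea cycle and gluconeogenesis, had 65.2, 92, 52.1 and 71.4 FPKM in the CC-IF livers, 37.2, 42.2, 39.8 and 37.6 FPKM in the CC livers, 56.2 and 25.8 FPKM in the HFD-IF livers and 68.4, 70, 72.1 and 77.5 FPKM in the HFD livers. The 2 HFD-IF libraries differed, and its interaction of 1.69 ± 0.32 was 1.15 without library 1 (limma adjusted p = 0.0922).

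Succinate is the metabolite in the title of the study. Of 33 genes of the citric acid cycle and succinate metabolism 1 was called, where 1.11% of all genes were. The median interaction was 0.36 and 28 values were above 0, against 54.4% of all genes. The median was 0.27 without HFD-IF library 1 and 0.53 without library 0. The called gene was Abat, which starts the breakdown of GABA towards succinate, with 106, 149, 106 and 125 FPKM in the CC-IF livers, 59.2, 72.9, 78 and 75 FPKM in the CC livers, 123 and 115 FPKM in the HFD-IF livers and 139, 138, 129 and 128 FPKM in the HFD livers. CC livers lay below all others, and the interaction was 0.92 ± 0.18 (limma adjusted p = 0.0365). The 4 subunits of succinate dehydrogenase had interactions of 0.38 ± 0.20 for Sdha, 0.50 ± 0.16 for Sdhb, 0.48 ± 0.12 for Sdhc and 0.55 ± 0.14 for Sdhd, and the lowest limma adjusted p of these was 0.0677. Without HFD-IF library 0 the 4 interactions were 0.74, 0.67, 0.58 and 0.63 in the same order. Without library 1 they were 0.02, 0.33, 0.39 and 0.48. Sucnr1, the succinate receptor, had 12.4, 19.2, 10.3 and 11.1 FPKM in the CC-IF livers, 32.6, 32.7, 27.5 and 23.7 FPKM in the CC livers, 25.7 and 8.27 FPKM in the HFD-IF livers and 40.4, 30.6, 48.7 and 39.3 FPKM in the HFD livers. It fell by 1.11 with fasting on chow and had -1.35 on high-fat diet (adjusted p = 0.0754 in limma). The interaction of 0.25 ± 0.44 changed sign to -0.52 without HFD-IF library 1.

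Of the 128 called genes, 13 were called in all 14 fits without 1 library: Cyp2a5, Usp2, Lipg, Akr1d1, Prodh, Asl, Abhd15, Coa6, Gpt, Mpzl2, Arg1, Rhobtb1 and Bckdhb. All 13 had an interaction above 0. Abhd15, Coa6, Mpzl2, Rhobtb1 and Bckdhb are named for this property, after their values were seen. Abhd15, which in mouse fat cells is known to bind the phosphodiesterase Pde3b (chromosome 11, 77515121 to 77538607), had 36, 34.6, 28.4 and 34.5 FPKM in the CC-IF livers, 11.5, 8.93, 10.8 and 13.1 FPKM in the CC livers, 24.1 and 24.4 FPKM in the HFD-IF livers and 25.5, 19.7, 23.7 and 23.1 FPKM in the HFD livers. HFD-IF and HFD livers shared 1 level between those of the CC-IF and CC livers, and the interaction of 1.43 ± 0.18 ran from 1.34 to 1.51 over those fits.

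Rhobtb1 (chromosome 10, 69151434 to 69291791) differed in where its interaction lay. It had 40.3, 37.2, 36 and 45.8 FPKM in the CC-IF livers, 24.8, 28.1, 24.6 and 25 FPKM in the CC livers, 18.1 and 18.5 FPKM in the HFD-IF livers and 26.3, 22.8, 24.4 and 24 FPKM in the HFD livers. CC and HFD livers overlapped, both HFD-IF livers were below every other liver, and the CC-IF livers were above every other liver. The CC minus HFD difference was 0.07, and the CC-IF minus HFD-IF difference was 1.08 ± 0.10, which was called (limma adjusted p = 0.000992). Coa6, an assembly factor of cytochrome c oxidase, had an interaction of 1.39 ± 0.21, and Mpzl2, an adhesion protein, of 1.11 ± 0.17.

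Further genes among the 12 highest interactions of called genes were called in fewer of those fits. Ppp1r1b, an inhibitor of protein phosphatase 1 that cyclic AMP signalling activates, had 5.02, 7.22, 5.21 and 6.65 FPKM in the CC-IF livers, 1.19, 2.52, 0.817 and 1.44 FPKM in the CC livers, 1.97 and 1.01 FPKM in the HFD-IF livers and 3.39, 2.35, 1.59 and 1.59 FPKM in the HFD livers and an interaction of 1.89 ± 0.36. Map2k6, which activates p38 kinases, had 10.1, 11.1, 8.18 and 8.08 FPKM in the CC-IF livers, 3.51, 1.9, 1.35 and 2.42 FPKM in the CC livers, 2.91 and 2.01 FPKM in the HFD-IF livers and 3.88, 1.66, 2.83 and 3.94 FPKM in the HFD livers and an interaction of 1.89 ± 0.35. Both were highest in CC-IF livers without overlap, and the other 3 groups overlapped. Slc15a5, a solute carrier, differed in kind: its change on chow was 0.19 and did not pass, it fell by 1.36 with fasting on high-fat diet, and the interaction of 1.55 ± 0.32 was called in 2 of the 14 fits. Serpina3m, a serine protease inhibitor, was the 1 called of 24 acute phase genes, where 1.11% of all genes were called. Its interaction was 1.53 ± 0.33, or 1.00 without HFD-IF library 1. Serpina3m belongs to a cluster of close copies that can share reads.

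The 13 genes with an interaction below 0 were all called lower by fasting on chow. Their median fasting change was -1.12 on chow and -0.12 on high-fat diet, CC livers had the highest group mean in 10 of the 13, and CC-IF livers had the lowest in 12. CC-IF lay below CC without overlap in 12, against 11.4% of all genes, CC above HFD in 8, against 4.6%, and CC-IF below HFD-IF in 12, against 8.61%. The 13 genes were chosen from these same libraries, so the counts describe where the interaction lay and are no separate evidence of it. Adgrf1, an adhesion G protein-coupled receptor (chromosome 17, 43270329 to 43324737), had 0.271, 0.27, 0.681 and 0.425 FPKM in the CC-IF livers, 7.7, 8.03, 8.12 and 6.25 FPKM in the CC livers, 0.638 and 0.161 FPKM in the HFD-IF livers and 0.421, 1.55, 2.02 and 1.16 FPKM in the HFD livers. It was above 6 FPKM in the 4 CC livers and at 2.02 FPKM or lower in every other liver. Its interaction was -1.92 ± 0.33 (limma adjusted p = 0.0213), the CC minus HFD difference was 1.95 and the CC-IF minus HFD-IF difference 0.02, so nearly all of the interaction lay in the ad libitum groups.

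Eif2ak3, the stress kinase PERK of the endoplasmic reticulum (chromosome 6, 70844515 to 70905245), had 5.6, 5.21, 7.83 and 5.49 FPKM in the CC-IF livers, 15.7, 10.9, 9.58 and 12 FPKM in the CC livers, 8.81 and 10.5 FPKM in the HFD-IF livers and 8.07, 6.11, 6.14 and 6.12 FPKM in the HFD livers. CC livers were higher than CC-IF and HFD livers, and the interaction was -1.37 ± 0.24 (limma adjusted p = 0.0229). Eif2ak3 was not in the list of the unfolded protein response, of whose 26 genes 0 were called, where 1.11% of all genes were. In that list 24 of 26 interactions were below 0, with a median of -0.58. Fasting lowered 23 on chow, against 9.77% of all genes, and 4 on high-fat diet, against 0.965%, with median changes of -1.23 and -0.82. The median interaction was -0.86 without HFD-IF library 1 and -0.29 without library 0. Hspa5, the main chaperone of the compartment, had 97.8, 167, 211 and 174 FPKM in the CC-IF livers, 853, 636, 798 and 499.8 FPKM in the CC livers, 331 and 208 FPKM in the HFD-IF livers and 419.6, 892, 683 and 410.1 FPKM in the HFD livers and an interaction of -1.005 ± 0.47 (limma adjusted p = 0.274). Pdia6, a disulfide isomerase, fell on both diets, with changes of -2.18 on chow and -1.30 on high-fat diet, with an interaction of -0.88 ± 0.31.

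Fgf21, the hepatokine that fasting and amino acid shortage induce (chromosome 7, 45613886 to 45615490), had the lowest interaction, with 2 unlike HFD-IF libraries behind it. It had 6.81, 3.51, 4.37 and 9.78 FPKM in the CC-IF livers, 18.4, 33.3, 28.8 and 19.3 FPKM in the CC livers, 11.5 and 106 FPKM in the HFD-IF livers and 5.12, 8.55, 12.5 and 7.94 FPKM in the HFD livers. It fell by 1.91 with fasting on chow, and on high-fat diet HFD-IF library 1 was above all other livers while library 0 lay inside the range of the HFD livers. The interaction of -3.90 ± 0.82 (limma adjusted p = 0.0443) was -2.35 without library 1 (adjusted p = 0.112) and -5.45 without library 0, and it was called in 1 of the 14 fits without 1 library. It was the 1 called gene of 18 in the amino acid response of ATF4 and of 18 hepatokines, where 1.11% of all genes were called. Igfbp1 and Igfbp2, insulin-like growth factor binding proteins of the second list, had -1.67 ± 1.01 and -0.45 ± 0.41. Igfbp1 was -0.06 without HFD-IF library 1 and -3.27 without library 0 (limma adjusted p = 0.0273).

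Cldn1, a tight junction protein (chromosome 16, 26356642 to 26371841), had 16.9, 14.6, 14.7 and 13 FPKM in the CC-IF livers, 39, 49.6, 41.7 and 42.2 FPKM in the CC livers, 27.2 and 36.2 FPKM in the HFD-IF livers and 42, 36.5, 45 and 31.3 FPKM in the HFD livers. CC-IF livers were below all others, and the interaction was -1.20 ± 0.20 (limma adjusted p = 0.0212). Abca8b, an ABC transporter, had 16.1, 15, 14 and 12.4 FPKM in the CC-IF livers, 29.6, 34.6, 31.8 and 29.5 FPKM in the CC livers, 20.8 and 23 FPKM in the HFD-IF livers and 22.2, 27.2, 25.8 and 23.5 FPKM in the HFD livers and an interaction of -0.91 ± 0.15, which was called in 13 of the 14 fits without 1 library. Trex1, a DNA exonuclease, was the 1 gene called in opposite directions by fasting, with changes of -0.24 on chow and 0.45 on high-fat diet and 8.57, 7.52, 7.26 and 7.46 FPKM in the CC-IF livers, 9.35, 8.33, 10.1 and 9.44 FPKM in the CC livers, 12.8 and 10.8 FPKM in the HFD-IF livers and 8.13, 8.25, 9.01 and 8.1 FPKM in the HFD livers. These changes are small, and the interaction was -0.69 ± 0.13. Interactions of the others were -1.48 ± 0.32 for Fam25c, -1.32 ± 0.29 for Tuft1, -1.09 ± 0.21 for Mpzl1, -1.01 ± 0.21 for Hn1l, -0.99 ± 0.19 for Nhsl1 and -0.77 ± 0.14 for Gtpbp2, a GTPase that rescues stalled ribosomes. The last of the 13 is Myef2 (-0.58 ± 0.12), which is named to complete the count.

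Most genes of cholesterol synthesis fell with fasting on both diets. Fasting was called in both contrasts for 29 genes that rose and 87 that fell, and for Trex1 in opposite directions. Of the 41 genes called higher on high-fat diet 29 (70.7%) were also called higher on chow, and of the 111 called lower 87 (78.4%). Of the 1633 called higher on chow 29 (1.78%) were called on high-fat diet, while 1145 had a high-fat change of the same sign. Of the 1123 called lower on chow 87 (7.75%) were called on high-fat diet, and 955 had the same sign. Of 25 genes of cholesterol synthesis and uptake, fasting on chow lowered 18 and raised 1, against 9.77% and 14.2% of all genes. On high-fat diet it lowered 21 and raised 0, against 0.965% and 0.357%. The median changes were -1.10 on chow and -1.82 on high-fat diet. All 25 interactions were above 0, against 54.4% of all genes, so each gene's change was lower on high-fat diet. Their median was 0.81, and 0 were called, where 1.11% of all genes were. The median was 0.36 without HFD-IF library 1 and 1.07 without library 0.

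Sqle, squalene epoxidase, had 1.36, 1.17, 1.01 and 1.06 FPKM in the CC-IF livers, 18.5, 30.2, 19 and 8 FPKM in the CC livers, 2.17 and 0.905 FPKM in the HFD-IF livers and 19.5, 35.3, 43.2 and 25.8 FPKM in the HFD livers. Both fasted groups lay below both ad libitum groups, with an interaction of 0.56 ± 0.52 (limma adjusted p = 0.603). Idi1, Cyp51, Nsdhl and Dhcr7, other enzymes of sterol synthesis, fell on both diets. The change on chow was -2.74 for Idi1, -2.40 for Cyp51, -1.86 for Nsdhl and -1.96 for Dhcr7, and on high-fat diet it was -3.48, -2.51, -2.73 and -2.64 in the same order. Rdh11, Tfpi2 and Gstm7, outside that list, also fell on both diets, and Tfpi2, a protease inhibitor, had changes of -1.19 on chow and -1.16 on high-fat diet, with an interaction of -0.02 ± 0.18.

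Fatty acid synthesis showed no called interaction among 24 genes, where 1.11% of all genes were called. The list median of 0.20 was 0.17 without HFD-IF library 1 and 0.30 without library 0. Fasn, fatty acid synthase, fell on both diets, with changes of -2.72 on chow and -3.24 on high-fat diet. Thrsp, a lipogenic protein, had 78, 159, 43.5 and 133 FPKM in the CC-IF livers, 385, 212, 187 and 44 FPKM in the CC livers, 34.5 and 8.74 FPKM in the HFD-IF livers and 357, 222, 265 and 545 FPKM in the HFD livers. It fell with fasting on high-fat diet (-4.14) and was not called on chow (-0.80). The HFD-IF livers were below all others, the CC-IF and CC livers overlapped, and the interaction of 3.34 ± 0.98 was called in 1 of the 14 fits without 1 library (limma adjusted p = 0.109 with all). Srebf1, which encodes the factor that drives the pathway, had an interaction of 0.85 ± 0.56.

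**Figure D5:**
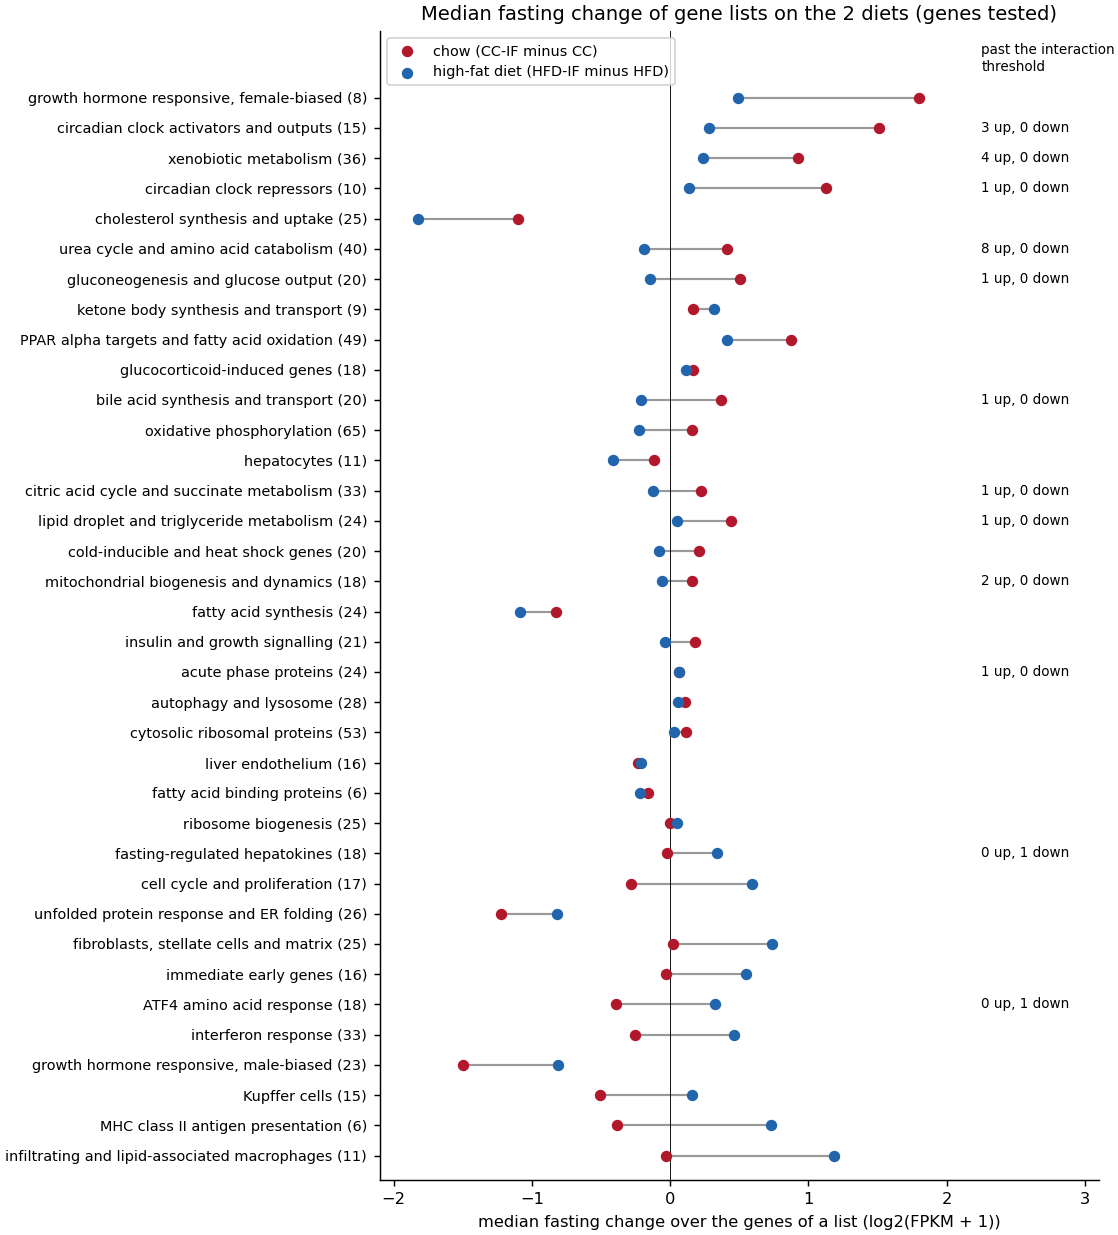
Median fasting change (log2(FPKM + 1), horizontal) over the genes of each list with at least 5 genes tested, on chow (red, CC-IF minus CC) and on high-fat diet (blue, HFD-IF minus HFD), ordered by the median interaction, with the number of genes tested in parentheses. The counts at the right are genes called in the interaction; 12 lists have any, led by the urea cycle and amino acid list with 8. Lists of macrophages and MHC class II lie at the bottom, with their high-fat medians above 0.

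Lists of macrophages, MHC class II, matrix and interferon response lay below 0 in the interaction, with medians nearer 0 or above it without HFD-IF library 1. The median interaction was -1.20 over 11 macrophage genes, -1.19 over 6 of MHC class II and -0.84 over 15 of Kupffer cells, the resident macrophages. It was -0.81 over 33 interferon response genes and -0.67 over 25 of matrix and stellate cells. In each list 0 genes were called, where 1.11% of all genes were. Without HFD-IF library 1 these medians were 0.32, -0.01, -0.22, -0.27 and 0.04. Without library 0 they were -2.71, -2.29, -1.44, -1.23 and -1.31. Summed MHC class II markers were 86.4 FPKM in HFD-IF library 0 and 433 FPKM in library 1, against 69.1 to 164 FPKM in the other livers. Kupffer cell markers summed to 311 and 678 FPKM in the same 2 libraries, against 268 to 551 FPKM elsewhere, and matrix markers to 869 and 1198 FPKM, against 741 to 881 FPKM. In the same library 1 the hepatocyte markers had their lowest sum, 26052 FPKM. The part of these cell type differences in the interaction was not tested.

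Lists of growth hormone response leaned apart by sex bias. All 8 measured female-biased genes had an interaction above 0, against 54.4% of all genes, with a median of 1.33. Of 23 male-biased genes 18 were below 0, with a median of -0.82. In either list 0 genes were called, where 1.11% of all genes were. Fasting on chow raised 5 of the 8 and lowered 10 of the 23, against 14.2% and 9.77% of all genes. Fasting on high-fat diet called 0 of either, where 1.32% of all genes were called. Without HFD-IF library 1 the medians were 1.96 and -1.52, and without library 0 they were 1.17 and 0.22, so the sign of the male-biased median depended on the library. Cytosolic ribosomal proteins, 0 of 53 called, had a median of 0.07.

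The remaining lists had 0 genes called with all libraries, where 1.11% of all genes were. The median interaction was -0.56 over 17 cell cycle genes, -0.69 over 16 immediate early genes and 0.40 over 18 glucocorticoid-induced genes, and without HFD-IF library 1 these medians were 0.10, -0.24 and 1.09. Without library 0 they were -1.21, -0.74 and 0.05. With both libraries it was 0.27 over 20 cold-inducible and heat shock genes, 0.20 over 21 genes of insulin and growth signalling, 0.09 over 28 autophagy and lysosome genes, -0.04 over 25 ribosome biogenesis genes and 0.05 over 16 endothelial markers. The cold-inducible and heat shock median was 0.02 without library 0, and that of insulin and growth signalling was 0.03 without library 1.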

How the data were processed

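Messenger RNA of liver was sequenced as paired reads of 125 nt, per the labels' protocols, from about 20 mg of tissue and 1 µg of total RNA with strand-specific polyA libraries. The authors deposited FPKM values per gene. Per the submitters' processing notes, the tools were Bowtie2 2.3.5.1, TopHat2 2.1.1, Trimmomatic 0.39 and FastQC 0.11.9. Which program made the FPKM values, on which annotation, is not given in the sources used here. Columns were assigned to groups by name, with 0 columns left over. They count libraries from 0 and the labels count from 1, so each column was tied only to a group. Per the design text the replicates are biological, and p-values set group differences against the spread between them. That spread was pooled over the 4 groups, so the 2 HFD-IF libraries add little to it.

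Genes with a mean FPKM of at least 1 over the 14 liver columns were tested on log2(FPKM + 1), a scale that understates changes of low genes, with limma 3.58.1 (R 4.3.3): 1 linear model, group as the only term, intensity trend, two-sided p, Benjamini-Hochberg adjustment over 11497 genes, threshold 0.05. A gene is called where it passes. Contrasts were the interaction, CC-IF against CC, HFD-IF against HFD, CC-IF against HFD-IF and CC against HFD. Errors after ± are SE for log2 values and SD for FPKM. The procedure was tested on simulated data in which all libraries shared the variance of a gene averaged over the groups. Changes were placed in CC-IF alone. The wider spread of the real HFD-IF libraries was not simulated, so that test does not cover it. FPKM holds no depth; low values were read as multiples of 1 fragment to estimate it, 67.2% to 79.5% of them lying within 0.2 of a whole number, where chance gives 40%. Python 3.11.15 with pandas 2.3.3, numpy 2.4.6 and matplotlib 3.10.9 made tables and plots. Over 19 pairs of libraries of a group, at most 0.287% of values were identical and Pearson's r was 0.904 to 0.963, so none was treated as a repeat.

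Named genes are the 12 highest and 12 lowest interactions among called genes (predicted genes, small RNAs and transcripts under 300 nt left out), up to 3 called members of each of 42 lists (30 of pathways, 12 of cell type markers), a set of fasting, lipid, clock and succinate genes named in any case (2 of these are not reported here), and up to 8 genes called in both fasting contrasts. The comparison, the lists and the genes were chosen with earlier results of these data known. RefSeq promoters matched 57 of the 78 genes named by rule or after seeing values. Alternatives were the pseudocount, the filter, rescaling, the intensity trend, array weights, a replicate block and leaving out each library.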

Additional observations from a re-analysis of the deposited data

Results flagged for a closer look

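In 7 of 228 groups of 4 libraries tested over the genes reported (3.07%), 1 library stood apart from the other 3, and chance gives about 1 in 20. Eif2ak3 was 8.07 FPKM in HFD library 0, against 6.11 to 6.14 FPKM in the other HFD libraries. Trex1 was 9.01 FPKM, Fmo5 145 FPKM, Sdhc 166 FPKM and Bckdhb 71.4 FPKM in HFD library 2, Trex1 above and the other 3 below their group. Nhsl1 was 10.7 FPKM in CC library 0 and Rhobtb1 28.1 FPKM in CC library 1, both above their group.

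The fasting change differed between the diets, by the interaction in limma, for 39 named genes. On the log2 scale the interaction was 3.15 for Cyp2a5, 2.56 for Gstt3, 2.55 for Usp2, 2.52 for Upp2, 2.34 for Ciart, 2.05 for Lipg, 1.89 for Ppp1r1b, 1.89 for Map2k6, 1.69 for Car5a, 1.68 for Akr1d1, 1.67 for Cyp3a25 and 1.55 for Slc15a5. It was 1.504 for Prodh, 1.45 for Asl, 1.13 for Gpt, 1.05 for Arg1, 0.80 for Bckdhb, 1.53 for Serpina3m, 1.26 for Fmo5, 1.10 for Dgat2, 0.92 for Abat, 0.75 for Mfn2 and 0.66 for Esrra. It was 1.43 for Abhd15, 1.39 for Coa6, 1.11 for Mpzl2 and 1.01 for Rhobtb1. Below 0 it was -3.90 for Fgf21, -1.92 for Adgrf1, -1.48 for Fam25c, -1.37 for Eif2ak3, -1.32 for Tuft1, -1.20 for Cldn1, -1.09 for Mpzl1, -1.01 for Hn1l, -0.99 for Nhsl1, -0.91 for Abca8b, -0.77 for Gtpbp2 and -0.69 for Trex1.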

How the results depend on the processing

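The interaction was called for 128 genes, and for 69 when libraries were rescaled by their median ratio (all 69 among the 128), 22 with a replicate block by column index (21 shared), 0 with array weights and 16 to 1761 without 1 library. The cause was not tested; each fit without a library has fewer samples. It stayed within 1.5 times of 128 with a pseudocount of 0.1 (120), no filter on low values (93), a mean FPKM of at least 5 (154) and no intensity trend (86). The fasting change on chow stayed within 1.5 times of 2756 under every alternative run. The high-fat count of 152 was 0 with array weights and 5 to 1631 without 1 library. CC-IF against HFD-IF, 68 genes, gave 30 without a filter, 20 without the trend, 0 with array weights, 4 with the replicate block and 1 to 1771 without 1 library. CC against HFD, 265 genes, gave 1061 with array weights, 125 with the block and 54 to 510 without 1 library. What the column index stands for is not given in the sources used here. Deviations of libraries with the same index correlated at -0.159 to 0.335 over 18 pairs (median 0.032). Those with another index correlated at -0.312 to 0.176 over 54 pairs (median -0.014). Whether libraries of 1 index share a batch cannot be told from these values, and why calls were lost under the block was not tested.

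Of the named genes, those that changed sign had no called interaction. Pdk4 was 0.0267 with array weights and -0.78 to 0.27 without 1 library, and Tfpi2 was 0.0283 with the replicate block and -0.106 to 0.0753 without 1 library. Without 1 library G6pc ran from -0.13 to 0.55, Igfbp2 from -1.20 to 0.31, Sucnr1 from -0.52 to 1.01, Cyp51 from -0.68 to 0.90, Idi1 from -0.25 to 1.72 and Gstm7 from -0.14 to 0.37. With 2 HFD-IF libraries, a miss of the threshold on high-fat diet does not show that a gene did not respond there.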
